A study of Mus musculus with 44 samples.

Results

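The hippocampus of mice aged 15 months was compared with that of mice aged 5 months, all on the control diet. The comparison holds the 8 libraries labelled 15M-CD and the 6 labelled 5M-CD, 14 of the 44 libraries of the study, taken by their labels alone. All mice were of the inbred strain C57BL/6J. The labels name no transgene, deletion or drug and no sex, so that age is the single labelled difference between the mice. The sequencing lane, named in the descriptions, differs between the groups too. CD is read as control diet, and MR as the methionine restriction named in the study's title, a diet poor in the essential amino acid methionine. The 7 libraries of 5M-MR and the 8 of 15M-MR hold the same ages under methionine restriction and share no library with the comparison. The 8 libraries of 18M-CD hold control-diet mice of 18 months and are set beside it, and the 7 of 18M-MR, methionine-restricted mice of that age, serve at a few loci only. The number of mice in the study's design equals the number of libraries in each group, so each library is read as 1 mouse.

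RNA abundance is given as FPKM, fragments scaled by transcript length and library total, of loci assembled from the reads. Of 13218 loci, 12057 (91.2%) reached 1 FPKM in 6 or more of the 14 libraries and were tested. Differences are 15M-CD minus 5M-CD in log2(FPKM + 1), and the added 1 makes those of loci with low FPKM too small. They are given with the standard error (SE) of the fit, and a locus is called where the p adjusted over all tested loci was under 0.05.

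The hippocampus lays down new memories. Its neurons answer activity with a fast wave of immediate early genes such as Fos, Egr1 and Arc, whose transcripts appear within minutes and decay soon after, so their level in a dissected sample reads out how active the cells were shortly before. In ageing rodents the hippocampus is known for higher levels of microglial, complement and myelin transcripts, and Arc is among the genes known to be induced less.

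The 14 libraries differed in ways that the labels of age do not name. On the sequencing lanes named in the descriptions, 5 libraries of 5M-CD lay on lane 1 and 5 of 15M-CD on lane 3, and lane 4 held 1 library of 5M-CD (replicate 9) and 3 of 15M-CD (replicates 7, 8 and 9), so age and lane can hardly be told apart. The libraries farthest from their own group's means were 5M-CD 9, 15M-CD 7 and 15M-CD 8, with a root mean square residual of 0.586, 0.599 and 0.616, against 0.421 to 0.547 in the other 11. The summed FPKM ran from 217930 to 282327. On average 560 ± 26.7 loci were at 0 in a 5M-CD library (SD, n = 6) and 630 ± 62 in one of 15M-CD (n = 8; 2-sided exact permutation p = 0.0263, adjusted p = 0.105 over 4 measures). The share of FPKM in loci with no gene symbol (5.45% ± 1.21, SD, n = 6, against 5.9% ± 1.48, n = 8) and that in mitochondrial rRNA loci (5.85% ± 1.57 against 7.04% ± 1.17) did not pass that test either. Ttr, the transthyretin gene that marks choroid plexus, stood between 12.6 and 186 FPKM in 12 libraries, at 4910 in 5M-CD 10 and at 3356 in 15M-CD 2. The list of pyramidal and dentate granule neuron genes, the cells that define the tissue, summed to 785 to 1723 FPKM in 5M-CD and 762 to 1584 in 15M-CD.

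In all, 9 loci were higher (0.0746% of those tested) and 24 lower (0.199%) at 15 months, and 7 and 15 of these carry a gene symbol. The differences of the called loci ran from 0.34 to 2.60 upwards and from −0.60 to −2.97 downwards. The median difference of all tested loci was 0.02, and 53.2% of them lay above 0. An unadjusted p under 0.05 was reached by 1031 loci, 607 higher and 424 lower. Without overlap between the 6 and the 8 libraries, 35 loci were higher (0.29%) and 55 lower (0.456%), and 6 of the 9 higher and 21 of the 24 lower calls were of this kind. Among the calls, 11 of the lower and 1 of the higher passed the filter on FPKM through 1 age group alone and so had to differ, which leaves 13 lower and 8 higher. A further 12 loci had an adjusted p between 0.05 and 0.1, the lowest at 0.0502.

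**Figure D1:**
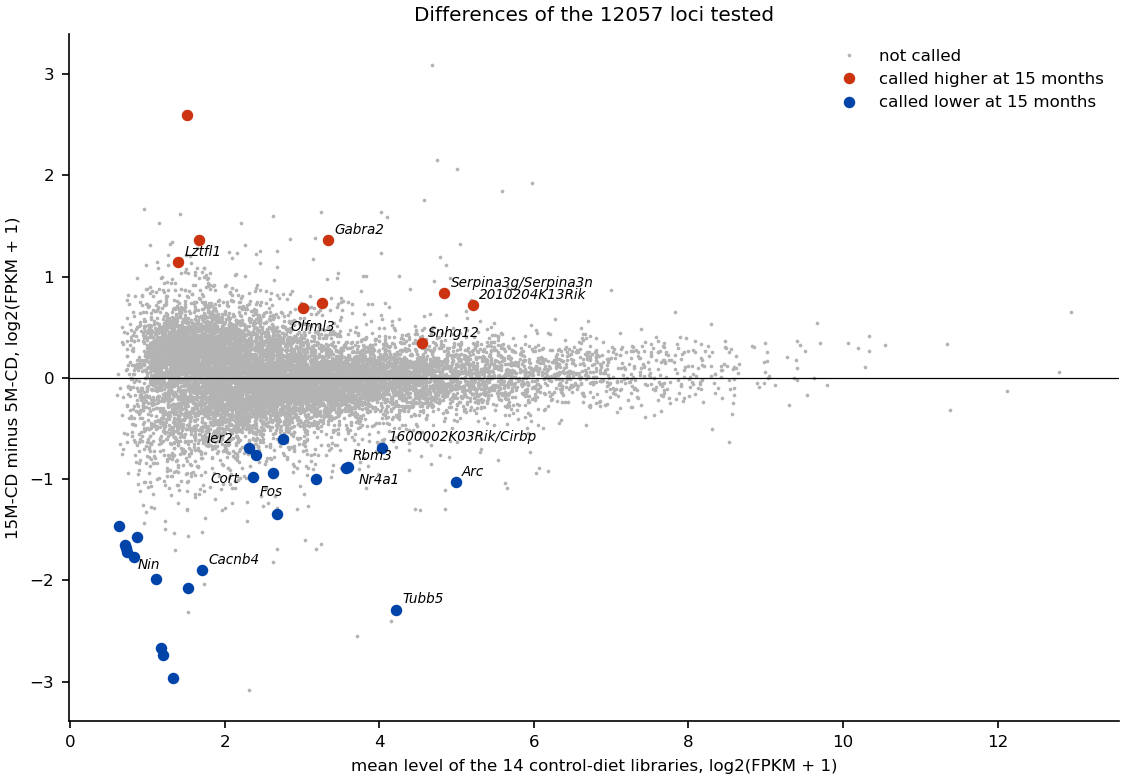
Difference between 15M-CD and 5M-CD against the mean level over the 14 control-diet libraries, both on the log2(FPKM + 1) scale, with 1 point for each of the 12057 loci tested. The 9 loci called higher are red and the 24 called lower are blue, with names beside most of those that have a gene symbol. Most calls lie at low to middle levels, and several large differences in grey were not called.

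Immediate early genes were the largest named group among the calls, and all 4 were lower at 15 months. Fos encodes a subunit of the AP-1 transcription factor, Nr4a1 an orphan nuclear receptor, Ier2 a small nuclear protein, and Arc a cytoskeleton-associated protein that acts at synapses. The upstream sequence of Fos and Nr4a1 is shown because many such genes answer to cyclic AMP and calcium through short elements close to their start. It holds the 250 bases before the start, from RefSeq on GRCm38.p6, for Fos from chr12:85473640-85473889 and for Nr4a1 from chr15:101266596-101266845, both on the plus strand. The table of promoters held 2 of the 4 genes. Capitals mark TGACG on either strand, the core of the cyclic AMP response element.
Fos: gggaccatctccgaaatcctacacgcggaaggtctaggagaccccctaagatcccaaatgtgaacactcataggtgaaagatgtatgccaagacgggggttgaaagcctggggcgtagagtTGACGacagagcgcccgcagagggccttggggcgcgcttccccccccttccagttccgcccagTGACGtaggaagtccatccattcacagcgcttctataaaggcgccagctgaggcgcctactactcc
Nr4a1: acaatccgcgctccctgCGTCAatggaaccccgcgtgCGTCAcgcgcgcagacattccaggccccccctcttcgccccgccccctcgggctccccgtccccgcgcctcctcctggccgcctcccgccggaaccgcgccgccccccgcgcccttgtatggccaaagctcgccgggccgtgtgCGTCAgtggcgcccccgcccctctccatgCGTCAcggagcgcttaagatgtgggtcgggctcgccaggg
The window of Fos holds TGACG at 2 positions, starting at positions −129 and −66 from the start, and that of Nr4a1 at 4 positions, each as its reverse complement. The full palindrome TGACGTCA, which contains TGACG, the E-box CACGTG and the CArG box were searched on both strands too and are in neither window. Of 32851 RefSeq promoters cut to the same 250 bases, 17.8% hold TGACG, 1.55% TGACGTCA, 6.02% CACGTG and 1.47% a CArG box. A match is a description of the letters and no evidence of a bound site.

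Fos lay at 4.94 FPKM in the lowest 5M-CD library, 8.65 at the median and 10.7 in the highest, and at 2.52, 3.73 and 4.75 FPKM in 15M-CD. The highest 15-month library was therefore below the lowest 5-month library, and those 2, 15M-CD 1 and 5M-CD 2, were close. The mean fell from 8.09 ± 2.04 (SD, n = 6) to 3.69 ± 0.725 FPKM (n = 8), 2.19-fold on the FPKM scale (difference −0.94, SE 0.15, adjusted p = 0.000261). Ier2 was tighter, between 5.16 and 6.13 FPKM with a median of 5.39 in 5M-CD and between 2.46 and 3.9 with a median of 3.07 in 15M-CD. Its groups did not overlap, and the mean fell from 5.55 ± 0.408 to 3.07 ± 0.43 FPKM (−0.69, SE 0.13, adjusted p = 0.0032).

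Nr4a1 ran from 13.9 over a median of 16.4 to 19.6 FPKM in 5M-CD and from 6.12 over 8.53 to 11.2 in 15M-CD. Every 15-month library was again under every 5-month one (−0.88, SE 0.195, adjusted p = 0.0228). Arc was the most abundant of the 4, with 30.8, 47.4 and 66.2 FPKM as the lowest, median and highest value of 5M-CD and 15, 23.3 and 33.9 of 15M-CD. Its groups overlapped, since 15M-CD 1 and 15M-CD 2 stood above 5M-CD 6 (−1.03, SE 0.234, adjusted p = 0.0279). The calls of Fos and Ier2 held whichever library was left out. Nr4a1 was lost without any of 5M-CD 2, 4, 8 or 9 or 15M-CD 4, 8 or 9 (−0.93 to −0.82 over all 14 left-out libraries, adjusted p up to 0.0843), and Arc without any of 5M-CD 2, 4, 8 or 9 or 15M-CD 4, 7 or 8 (−1.15 to −0.94, adjusted p up to 0.119). With lane as a factor none of the 4 passed (Fos −0.75, adjusted p = 0.227), and in lane 4, where 3 libraries meet 1, they differed by −0.90, −0.72, −1.05 and −1.40 for Fos, Ier2, Nr4a1 and Arc.

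The list of immediate early genes held 33 genes, of which 21 were tested at a locus of their own (22 loci, as Jund has 2). Beside the 4 called lower none was called higher, 17 of the 22 loci lay below 0, and 7 lay lower without overlap. The 5 loci above 0 were Ier5 (0.45, SE 0.34), Nr4a3 (0.35, SE 0.532), Homer1 (0.16), Nptx2 (0.04) and 1 of the Jund loci (0.01). Of all tested loci 0.199% were called lower, 46.8% lay below 0 and 0.456% lay lower without overlap. The list's members were chosen with earlier results of these data known. The median difference of the list was −0.45, and its summed FPKM was between 268 and 340 in 5M-CD and between 191 and 260 in 15M-CD, where 0.02 was the median of all loci. The other 4 without overlap, which are named here after their values were seen, were Ier3, Junb, Egr1 and Egr4, and none passed the test. Junb, another AP-1 subunit, had 34.9 to 42.1 FPKM in 5M-CD and 21.5 to 29 in 15M-CD (−0.62, adjusted p = 0.0985). The zinc finger factor Egr1 had 33.6 to 45.8 against 12.8 to 33.1 FPKM (−0.78, adjusted p = 0.139), and its relative Egr4 13.3 to 16.5 against 7.87 to 13.1 (−0.58, adjusted p = 0.297). Ier3 had 3.55 to 5.39 against 1.71 to 3.34 FPKM (−0.59, adjusted p = 0.0695). The neuronal lists beside these genes gave medians of 0.05 for pyramidal and dentate granule neurons (15 loci, 0 called) and −0.26 for interneurons (15 loci, 1 called), and their part in the result was not tested.

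**Figure D2:**
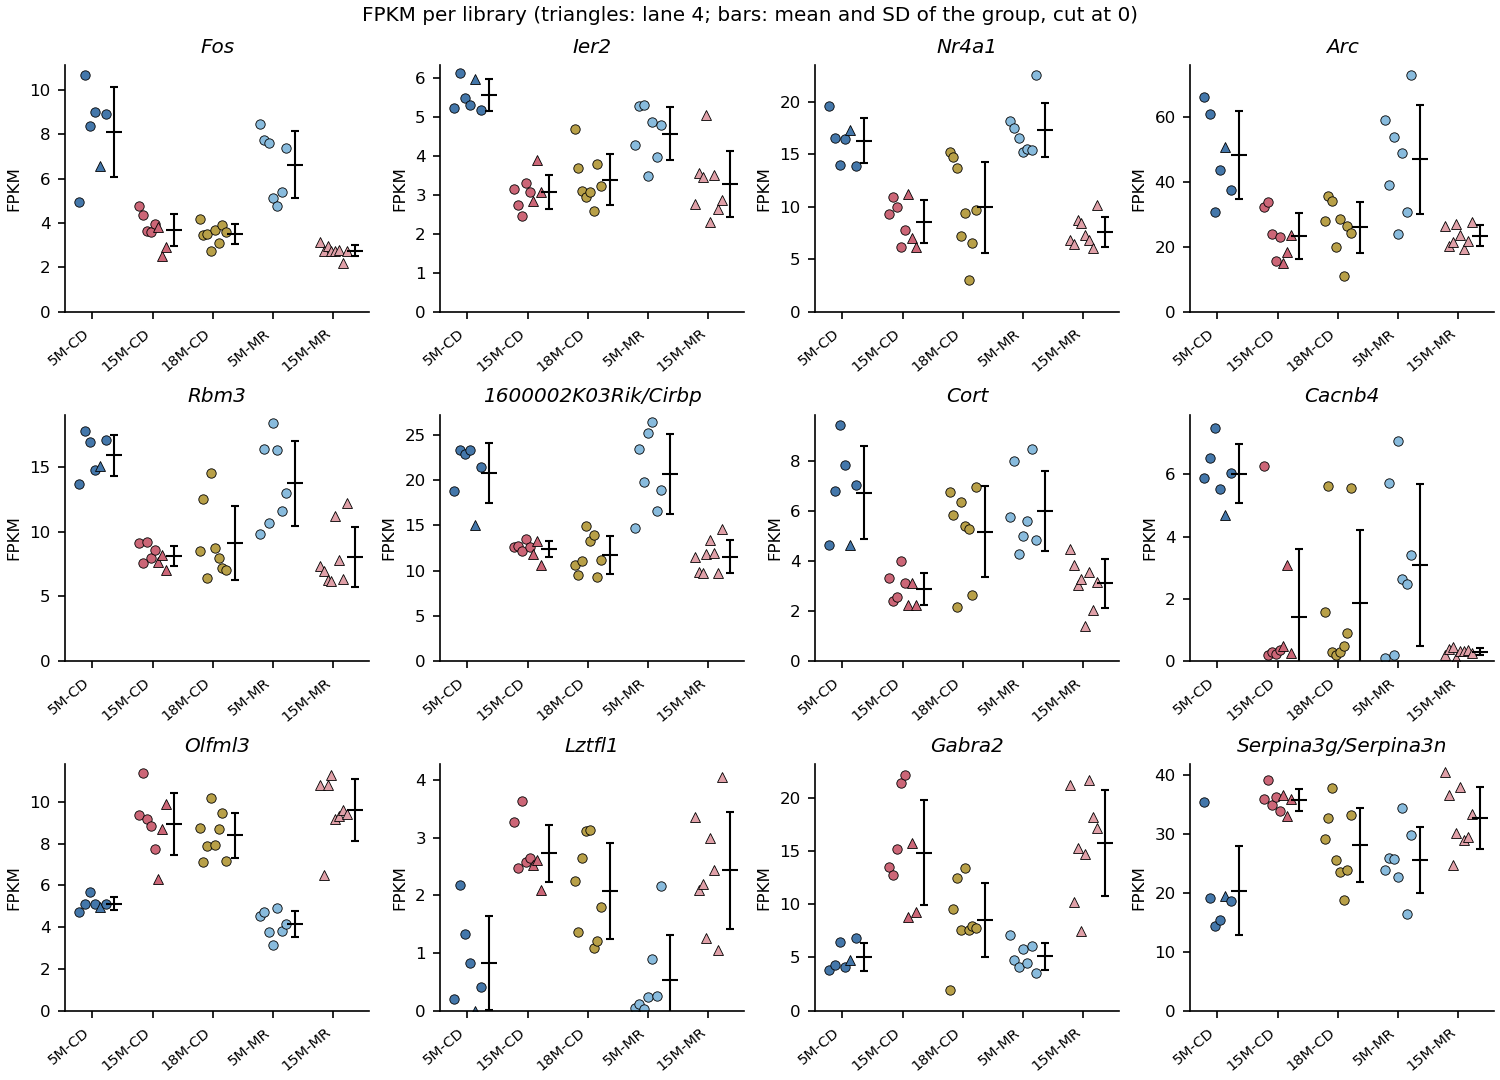
FPKM of 12 called genes and merged loci in every library of 5M-CD, 15M-CD, 18M-CD, 5M-MR and 15M-MR, with triangles for lane 4 and, beside the points, the mean and SD of the group, cut at 0. In the first 8 panels the 15M-CD libraries lie mostly below those of 5M-CD, with 2 high 15M-CD libraries for Cacnb4, and in the last 4 mostly above them.

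The list of cold-inducible RNA-binding genes held only 2 genes, chosen with earlier results of these data known, and the locus of each was called. Rbm3 and Cirbp encode small RNA-binding proteins that are induced by mild cooling and that also follow the daily rhythm of body temperature. Rbm3 stood at 13.7 FPKM in the lowest, 16 at the median and 17.8 in the highest 5M-CD library, and at 7.02, 8.05 and 9.21 in 15M-CD. The 2 groups stood clear of each other, and the mean fell 1.95-fold, from 15.9 ± 1.59 (SD, n = 6) to 8.15 ± 0.777 FPKM (n = 8; −0.89, SE 0.187, adjusted p = 0.0147). An antisense gene, Rbm3os, overlaps Rbm3 in GENCODE M21, and whether the counting used strand is not given in the sources used here, so reads of the 2 cannot be told apart. The merged locus of 1600002K03Rik and Cirbp, neighbours on chromosome 10, ran from 15 over 22.2 to 23.4 FPKM in 5M-CD and from 10.6 over 12.6 to 13.5 in 15M-CD (−0.69, SE 0.139, adjusted p = 0.00795). Its lowest 5-month value came from 5M-CD 9 on lane 4, and within that lane the difference was −0.31. Both calls held whichever library was left out, and neither passed with lane as a factor (adjusted p = 0.315 for Rbm3 and 0.236 for the merged locus).

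Genes that hormones and the clock drive did not pass. Of the 16 tested loci of glucocorticoid-induced genes 12 lay below 0 (median −0.28), and Sgk1, a kinase gene induced by glucocorticoids and salt balance, had a median of 29.2 FPKM in 5M-CD and 14.9 in 15M-CD (−0.91, SE 0.262, adjusted p = 0.192). Ddit4, which restrains mTOR signalling, differed by −0.65 (adjusted p = 0.26). Of 16 circadian clock loci 12 lay below 0 (median −0.23). The clock repressor Nfil3 was listed at 0 in 4 libraries of 15M-CD (replicates 2, 6, 7 and 8) and had 1.93 to 2.92 FPKM in the others, against 2.24 to 3.96 in 5M-CD (−1.24, adjusted p = 0.208). Arntl, which encodes the clock activator BMAL1, had 0.19 to 4.35 FPKM in 5M-CD and 2.92 to 4.21 in 15M-CD (0.71, adjusted p = 0.414). The hour of dissection is not given in the labels. Of 21 loci of ATF4 targets, the genes of the amino acid response, none was called (15 below 0, median −0.13), and the transporter gene Slc7a5 ranged from 0.453 to 16.8 FPKM within 15M-CD, against 15.7 to 19.2 in 5M-CD (−1.69, adjusted p = 0.205).

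Among neuropeptides Cort fell. It encodes cortistatin, a peptide of a subset of inhibitory interneurons that resembles somatostatin and binds its receptors. Its lowest, median and highest values were 4.62, 6.9 and 9.43 FPKM in 5M-CD and 2.23, 2.84 and 4 in 15M-CD. No 15-month library reached the lowest 5-month one, and the mean fell 2.34-fold, from 6.72 ± 1.86 (SD, n = 6) to 2.87 ± 0.626 FPKM (n = 8; −0.98, SE 0.205, adjusted p = 0.0137). In these samples of mixed cells, fewer cells of a type and less RNA per cell cannot be told apart. The call was lost without 5M-CD 6 or 5M-CD 8 (−1.06 to −0.88 over the left-out libraries, adjusted p up to 0.0706) and with lane as a factor (adjusted p = 0.236).

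Of the other 20 neuropeptide loci none was called, and the list had 15 of 21 below 0 and a median of −0.19. Sst, the gene of somatostatin itself, ran from 244 to 681 FPKM in 5M-CD and from 202 to 376 in 15M-CD (−0.51, adjusted p = 0.528). Npy, the gene of neuropeptide Y, ran from 83.4 to 116 and from 48.8 to 90.9 FPKM (−0.45, adjusted p = 0.446). Tac1, the precursor of substance P, ran from 0.926 to 8.65 and from 0.43 to 3.09 FPKM (−0.97, adjusted p = 0.296). Gad1, a GABA-synthesising enzyme that most interneurons share, differed by −0.26 (adjusted p = 0.752). Of the 15 interneuron loci 10 lay below 0 and 5 above. Those above were Nos1 (0.36), Cck (0.25), Calb2 (0.20), Htr3a (0.05) and Pvalb (0.02), none of them called. The 15 interneuron markers tested, Cort among them, summed to 757 to 1272 FPKM in 5M-CD and 685 to 1085 in 15M-CD, and their part in the result was not tested.

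Receptors and channels held a call in each direction. Gabra2, the alpha-2 subunit of the GABA-A receptor, the chloride channel of fast inhibition, was at 3.82 to 6.85 FPKM (median 4.51) in 5M-CD and at 8.77 to 22.2 (median 14.4) in 15M-CD. The groups stood apart, and the mean rose 2.95-fold (1.36, SE 0.29, adjusted p = 0.0153). The call was lost without 5M-CD 2 or 5M-CD 8 (1.27 to 1.45, adjusted p up to 0.055) and with lane as a factor (1.27, adjusted p = 0.315). Gabra2 and Nnt, the mitochondrial transhydrogenase gene, are known to vary between C57BL/6 substrains. Nnt was at 2.98 to 3.62 FPKM in 5M-CD and 3.39 to 7.06 in 15M-CD (0.62, SE 0.188, adjusted p = 0.217). The other tested genes of the substrain list were Wdfy1 (0.27, SE 0.375), Ide (−0.06) and Cyfip2 (−0.05), none of them called. A part of substrain in the rise of Gabra2 was not tested. Of the other 9 tested GABA-A subunit loci none was called. Gabra3, the alpha-3 subunit, ranged widely, from 0.403 to 19.1 FPKM in 5M-CD and from 0.176 to 8.18 in 15M-CD (−2.04, adjusted p = 0.216).

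Cacnb4, a beta subunit of voltage-gated calcium channels, showed a split among the 15-month control-diet mice, and in groups of other ages too. In 5M-MR it ran from 0.109 to 7.06 FPKM, in 18M-CD from 0.198 to 5.63 and in 18M-MR from 0.0967 to 5. The 15M-MR libraries had 0.0909 to 0.444 FPKM. All 5M-CD libraries had between 4.69 and 7.5 FPKM (median 5.95), while in 15M-CD 6 libraries had 0.209 to 0.491 FPKM, replicate 8 had 3.08 and replicate 1 had 6.26. The difference of −1.90 (SE 0.451, adjusted p = 0.047) was the call nearest the threshold. It was lost without any of 12 of the 14 libraries, the exceptions being 15M-CD 1 and 15M-CD 8 (−2.18 to −1.81, adjusted p up to 0.129). The call was also lost with a pseudocount of 0.1, a filter at 5 FPKM or lane as a factor (adjusted p = 0.266 with lane). It was the single call among 22 loci of voltage-gated sodium and calcium channels (median −0.12). Of 23 potassium channel loci none was called, 18 lay below 0 and the median was −0.24, with Kcnc4 at −0.43 (adjusted p = 0.536) and Kcnip3 at −0.31 (adjusted p = 0.547).

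Genes of the synapse itself gave no call. Of 34 loci of synaptic vesicle and release proteins 26 lay below 0 (median −0.18). Syt5, a calcium sensor of vesicles, had 31.1 to 41.6 FPKM in 5M-CD and 23.6 to 32.3 in 15M-CD (−0.36, adjusted p = 0.414), and the vesicle protein gene Syp 421 to 582 and 94.7 to 506 (−0.63, adjusted p = 0.517). The 28 loci of the postsynaptic density had a median of −0.02, and 10 loci of ionotropic glutamate receptors one of −0.14, with Gria3, an AMPA receptor subunit, at −0.46 (adjusted p = 0.554) and Grin2b, an NMDA receptor subunit, at 0.63 (adjusted p = 0.554, and −0.01 within lane 4). Across 8339 loci with a transcript length the difference fell with log2 length (r = −0.25, a description across loci that share libraries), and the medians were 0.06, −0.06 and −0.12 for loci with short, middle and long transcripts, divided into groups of 2780, 2780 and 2779. Channel, receptor and vesicle lists held long transcripts, with median lengths between 4158 and 7830 bases, and the part of length in their medians was not tested.

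Glial genes held the highest-ranked named rise. Olfml3, a secreted protein gene that marks microglia, the resident immune cells of the brain, was at 4.74, 5.1 and 5.69 FPKM as the lowest, median and highest value in 5M-CD and at 6.32, 9.02 and 11.4 in 15M-CD. All 8 older libraries exceeded all 6 younger ones, and the mean rose 1.75-fold, from 5.12 ± 0.313 (SD, n = 6) to 8.95 ± 1.49 FPKM (n = 8; 0.69, SE 0.132, adjusted p = 0.00435). The call held whichever library was left out (0.64 to 0.75) and not with lane as a factor (0.60, adjusted p = 0.306). Of 16 loci of homeostatic microglia Olfml3 was the 1 called, 11 lay above 0 and the median was 0.13. Tmem119, a defining marker of microglia, also stood apart, with 4.23 to 5.39 against 5.84 to 9.32 FPKM (0.49, SE 0.129, adjusted p = 0.119). Cx3cr1 and P2ry12, receptors of the same cells, had differences of −0.48 (SE 0.509) and −0.36 (SE 0.507), and varied widely between mice. Cx3cr1 had 5.42 to 7.21 FPKM in 5M-CD and 0.0984 to 9.71 in 15M-CD, and P2ry12 0.0993 to 7.68 and 0.0477 to 11.8. Both were above 0 within lane 4 (0.18 and 0.50), and P2ry12 also with array weights (0.03). The summed FPKM of the list was 152 to 227 in 5M-CD and 169 to 331 in 15M-CD, and its part in the rise of Olfml3 was not tested.

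Complement and MHC class I genes lay above 0 at 10 of 10 loci (median 0.29), with none called. C1qa and C1qb, chains of the complement starter C1q that microglia make, differed by 0.41 (adjusted p = 0.478) and 0.32 (adjusted p = 0.605). Cd59a, an inhibitor of the complement pore, had 1.76 to 7.32 FPKM in 5M-CD and 5.65 to 12.7 in 15M-CD (1.09, SE 0.344, adjusted p = 0.257).

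Astrocyte genes gave a call at a merged locus. Serpina3g/Serpina3n, 2 serine protease inhibitor genes on chromosome 12 that the table does not separate, holds a marker of reactive astrocytes in Serpina3n. In 15M-CD all 8 libraries lay between 33.1 and 39.2 FPKM, in 5M-CD 5 lay between 14.4 and 19.4, and 5M-CD 2 was at 35.4. The rise of 0.84 (SE 0.184, adjusted p = 0.0194) was lost without 5M-CD 6, 8 or 10 (0.76 to 1.01, adjusted p up to 0.103). With lane as a factor it was 0.47 (adjusted p = 0.427). Gfap, the filament gene of reactive astrocytes, differed by 0.26 (adjusted p = 0.66). S100b, a calcium-binding protein gene of astrocytes, stood apart without passing the test, with 26.5 to 37.9 FPKM in 5M-CD and 43 to 57 in 15M-CD (0.50, SE 0.161, adjusted p = 0.29). Fgfr3, a growth factor receptor of astrocytes, had 7.74 to 13.9 FPKM in 5M-CD and 6.15 to 9.49 in 15M-CD (−0.43, adjusted p = 0.455). Slc1a2, their main glutamate transporter, had 50.7 to 105 and 3.86 to 103 FPKM (−0.73, adjusted p = 0.621), and within lane 4 its difference was 0.40. Of the 15 astrocyte loci 10 lay above 0 and 5 below, with a median of 0.09. Mt3, the metallothionein gene of the brain and one of its most abundant transcripts, ran from 587 over a median of 631 to 778 FPKM in 5M-CD and from 809 over 929 to 1329 in 15M-CD. It was the locus nearest the threshold from outside (0.54, SE 0.129, adjusted p = 0.0502). Mt3 passed without 5M-CD 9 or 15M-CD 1, 3 or 6, at an adjusted p between 0.0372 and 0.0461. It did not pass with any other library left out (adjusted p up to 0.174). With lane as a factor it was 0.52 (adjusted p = 0.316), and within lane 4 it was 0.28. Quantile normalization, array weights, a filter at 5 FPKM and no intensity trend let it pass (adjusted p = 0.0136, 0.00187, 0.0336 and 0.0477). Median scaling, the replicate block and a fit of only the groups compared did not (0.14, 0.207 and 0.117). Neither did a pseudocount of 0.1, no filter or a filter over all 44 libraries (0.0557, 0.0582 and 0.055).

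Oligodendrocyte genes, which make and maintain myelin, had the highest median of the lists with at least 7 loci, 0.34 over 21 loci, 16 of them above 0 and none called. Cmtm5, a membrane protein gene of myelin, was at 5.73 to 8.77 FPKM in 5M-CD and 6.98 to 12.6 in 15M-CD (0.47, SE 0.13, adjusted p = 0.162). Ppp1r14a, a phosphatase inhibitor, was at 11.7 to 25.7 and 14.7 to 46.3 FPKM (0.63, adjusted p = 0.526). Mbp, the basic protein of myelin, was at 254 to 531 and 182 to 669 FPKM (0.14, SE 0.268), so that its groups covered each other, and within lane 4 it was −0.22. The lineage factors Olig2 (4.06 to 6.84 against 6.72 to 10.5 FPKM, 0.52, adjusted p = 0.0984) and Olig1 (24 to 41.2 against 34.2 to 63.2 FPKM, 0.48, adjusted p = 0.326) did not pass either.

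**Figure D3:**
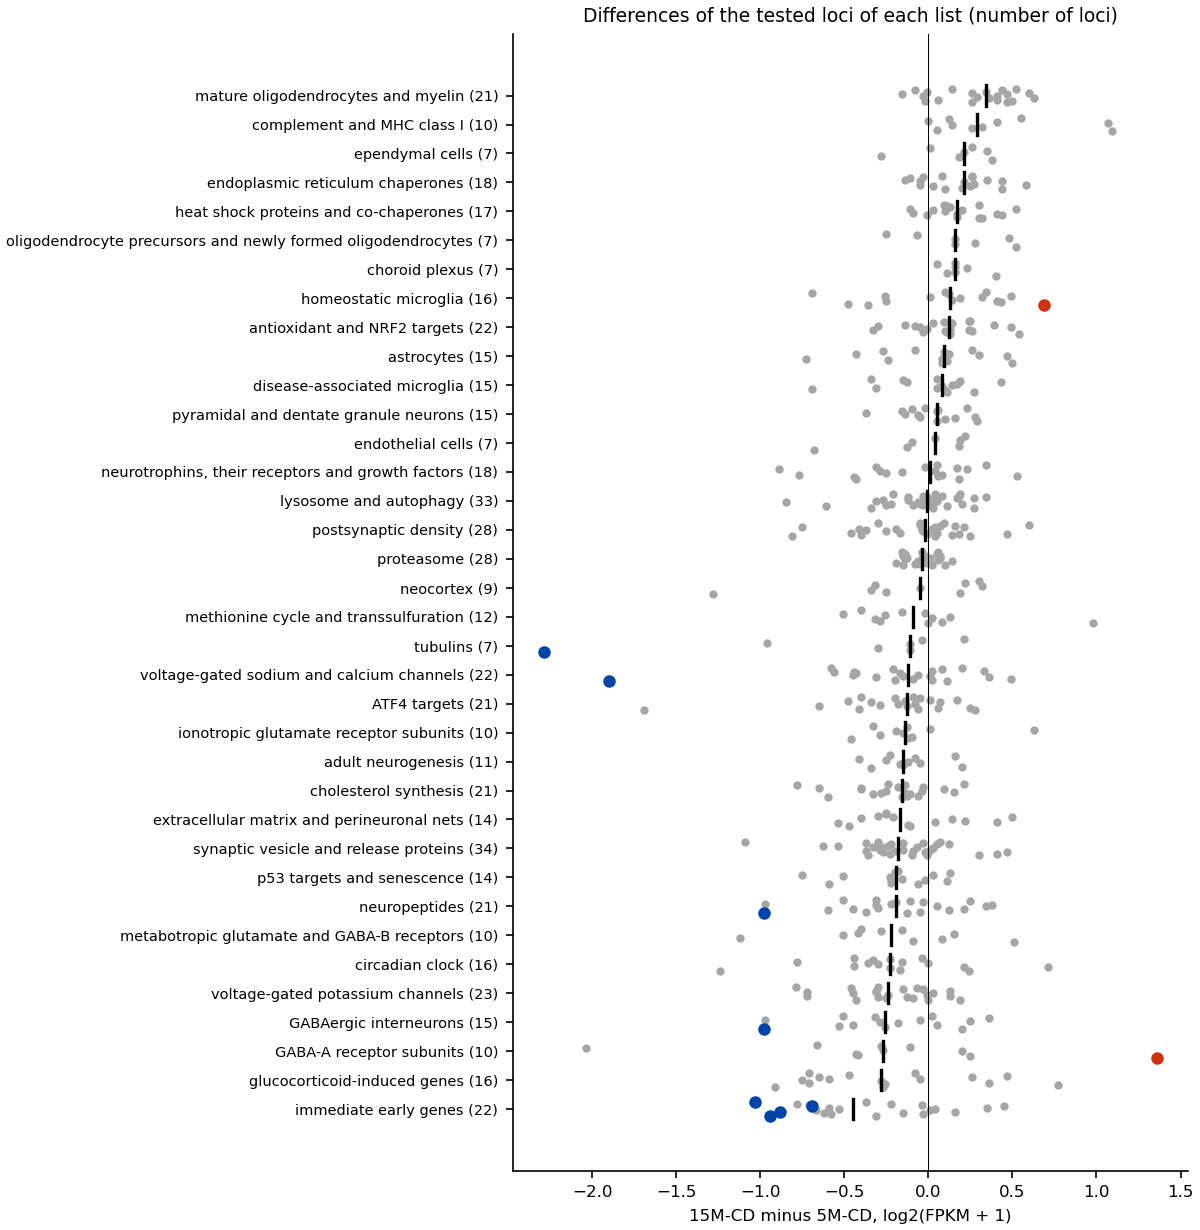
Differences between 15M-CD and 5M-CD (log2(FPKM + 1)) of the tested loci of each list with at least 7 of them, 1 point a locus and a black bar at the list's median, with loci called higher in red and lower in blue. The lists run from immediate early genes (median −0.45) at the bottom to mature oligodendrocytes and myelin (0.34) at the top, and most members of most lists lie close to 0.

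Protein folding and lipid genes gave no call. Of 18 loci of endoplasmic reticulum chaperones, which fold secreted proteins, 13 lay above 0 (median 0.21). Calr, the calcium-binding chaperone calreticulin, was at 137 to 175 FPKM in 5M-CD and 160 to 219 in 15M-CD (0.35, adjusted p = 0.366). Pdia6 (0.44, adjusted p = 0.355) and Sdf2l1 (0.58, adjusted p = 0.371) of the same compartment did not pass. Of 17 heat shock loci 14 lay above 0 (median 0.17), with the small heat shock gene Hspb1 at 0.52 (adjusted p = 0.527). Of 21 loci of cholesterol synthesis 18 lay below 0 (median −0.16), and Sqle, squalene epoxidase, differed by −0.60 (adjusted p = 0.554), with its lowest value, 0.115 FPKM, in 15M-CD 7.

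Of the lists not yet described, tubulins (7 loci, median −0.11) held the call of a Tubb5 locus and the substrain-variable genes that of Gabra2. Medians were −0.01 for 33 loci of lysosome and autophagy, −0.04 for 28 of the proteasome, −0.09 for 12 of the methionine cycle and transsulfuration, −0.19 for 14 of p53 targets and senescence and −0.15 for 11 of adult neurogenesis. They were 0.12 for 22 antioxidant loci, 0.01 for 18 of neurotrophins and growth factors, −0.17 for 14 of extracellular matrix, −0.22 for 10 of metabotropic receptors, 0.11 for 4 of the interferon response and 0.08 for 15 of disease-associated microglia. Precursors of oligodendrocytes had 0.16 (7 loci), reactive astrocytes 0.26 (3 loci), and the substrain-variable genes 0.27 (5 loci). Blood vessel genes centred on 0.04 (7 endothelial loci) and −0.02 (4 of pericytes and smooth muscle), although Slco1a4, a transporter of the blood-brain barrier, stood apart at 5.96 to 8.21 against 3.13 to 5.44 FPKM (−0.68, adjusted p = 0.414). Of neighbouring tissue, choroid plexus loci had a median of 0.16 (7 loci), those of meninges and fibroblasts 0.03 (6 loci), and those of neocortex −0.05 (9 loci). Ependymal loci had 0.21 (7 loci), those of thalamus and striatum 0.21 (5 loci) and those of blood cells −0.10 (2 loci). Ogn, osteoglycin of fibroblasts, had a median of 1.19 FPKM in 5M-CD and of 3.77 in 15M-CD (1.02, adjusted p = 0.139). Mitochondrially encoded genes stood only in merged loci and were not described.

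Of the other higher calls, Lztfl1, which regulates traffic to the cilium, was listed at 0 in 5M-CD 9, ran up to 2.18 FPKM in 5M-CD 4, and had 2.09 to 3.63 in 15M-CD (1.14, SE 0.244, adjusted p = 0.0157). It was lost without 5M-CD 2, 9 or 10 (0.99 to 1.32, adjusted p up to 0.0897). The call was also lost with quantile normalization, with only the groups compared and with lane as a factor (adjusted p = 0.306 with lane). The noncoding Snhg12 was higher by a small, even step, from 18.2 to 21.8 FPKM in 5M-CD to 22.1 to 29.6 in 15M-CD (0.34, SE 0.0791, adjusted p = 0.0448), and 2010204K13Rik, a transcript of the X chromosome, had 15.4 to 37 and 34.9 to 61.6 FPKM (0.72, SE 0.168, adjusted p = 0.0376). Snhg12 was lost without any of 10 libraries (adjusted p up to 0.128) and 2010204K13Rik without any of 8 (adjusted p up to 0.208). With lane as a factor neither passed (adjusted p = 0.327 for Snhg12 and 0.352 for 2010204K13Rik). Lztfl1, Cacnb4, Nin and Entpd4 overlap other annotated genes and Snhg12 hosts small RNAs, so their values are uncertain in the same way as that of Rbm3.

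The locus of Tubb5, a beta-tubulin, split by lane within 5M-CD. In 5M-CD the 5 libraries of lane 1 had 56.8 to 64.9 FPKM and replicate 9, on lane 4, had 8.91. The 15M-CD libraries had 6.34 to 9.73, so the groups overlap in that 1 library, and the call (−2.29, SE 0.326, adjusted p = 3.29e-05) came down to −0.13 within lane 4. On lane 1 the 2 libraries of 5M-MR had 11 and 17.7 FPKM, and on lane 3 the 6 of 18M-MR ran from 6.15 to 56.2 FPKM. The symbol stands on 3 loci, which sum to 97.7 to 119 FPKM in 5M-CD on lane 1 and to 30.9 to 74.3 in 15M-CD on lane 3. On lane 4 the sum was 44.3 FPKM in 5M-CD 9 and 41.3 to 50.7 in 15M-CD, so the gene is uncertain.

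Among the other lower calls were the merged loci Tmem254b/Tmem254c, near-identical transmembrane protein genes on chromosome 14, with 5.89 to 13.3 FPKM in 5M-CD and 2.79 to 3.94 in 15M-CD (−1.35, SE 0.191, adjusted p = 3.29e-05), and Entpd4/Gm21685, a nucleotidase locus, with 5.14 to 8.21 and 2.81 to 3.64 (−0.76, SE 0.144, adjusted p = 0.0032). Their groups did not overlap, and genes with close copies are uncertain, since reads of the copies may have been split between them. The predicted gene Gm15453 had 8.37 to 13.9 FPKM in 5M-CD and 5.22 to 6.8 in 15M-CD (−1.0, SE 0.162, adjusted p = 0.000317). MSTRG.44970, which has no symbol, rose from 0.708 to 1.4 FPKM in 5M-CD to 2.67 to 7.26 in 15M-CD (1.36, SE 0.293, adjusted p = 0.0157), a call lost without 5M-CD 8 (adjusted p = 0.0504). With lane as a factor MSTRG.44970, Gm15453 and Entpd4/Gm21685 did not pass (adjusted p = 0.315, 0.123 and 0.0773), and Tmem254b/Tmem254c did (0.00642).

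A separate set of loci was present in one age group and all but missing from the other. In 11 of the 24 lower calls every 15M-CD library was under 1 FPKM, with 0.892 as the highest value, while the 5M-CD means ran from 1.82 to 7.44 FPKM. Such loci passed the filter through 5M-CD alone and so had to differ, so their differences are given as a description without a test. Of the 11, 8 have no symbol, and the others are the predicted Gm13304, the merged LOC100041599/LOC101055676, and Nin, which encodes the centrosome protein ninein. Gm13304 had 4.65 to 7.75 FPKM in 5M-CD and 0.0086 to 0.0439 in 15M-CD (−2.74), and MSTRG.24886 4.61 to 6.09 and 0.00865 to 0.0389 (−2.67). MSTRG.44510 had 3.79 to 11 FPKM in 5M-CD, and of 15M-CD replicate 4 had 0.308 and the others at most 0.0197. Nin was listed at 0 in 7 of 8 libraries of 15M-CD and had 1.12 to 3.68 FPKM in 5M-CD, and its call was lost without 5M-CD 6 or 8. In the other direction MSTRG.43220 was listed at 0 in 5 libraries of 5M-CD and at 0.138 in replicate 9, and had 1.8 to 7.93 FPKM in 15M-CD.

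The same loci were set beside the other groups. Of the 11, 10 were under 1 FPKM in every 15M-MR library too, and 5 of the 11 were under 1 FPKM in 1 or 2 libraries of 5M-MR. The lowest 5M-MR value ran from 0 for Nin over 0.165 for MSTRG.44515 to 2.78 for MSTRG.24886 and 3.75 for Gm13304. Among the 5M-MR libraries replicate 4 was under 1 FPKM at 3 of the 11 loci and replicates 7 and 8 at 2 each. In 18M-CD 11 of the 11 loci had 1 FPKM or more in some library, and the 18M-CD mean lay above the 15M-CD mean at each. Among the 18M-CD libraries replicate 3 was under 1 FPKM at 11 of the 11 loci, and the other 7 were so at 0 to 5 of them. MSTRG.43220 had at least 1 FPKM in 18M-CD 3 and 18M-CD 6. In 18M-MR replicate 1 was under 1 FPKM at 10 of the 11 loci, with MSTRG.43220 present, and the other 6 libraries were so at 1 or 2. The labels name 1 strain for all mice, and age and lane can hardly be told apart. The cause of these values was not tested.

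**Figure D4:**
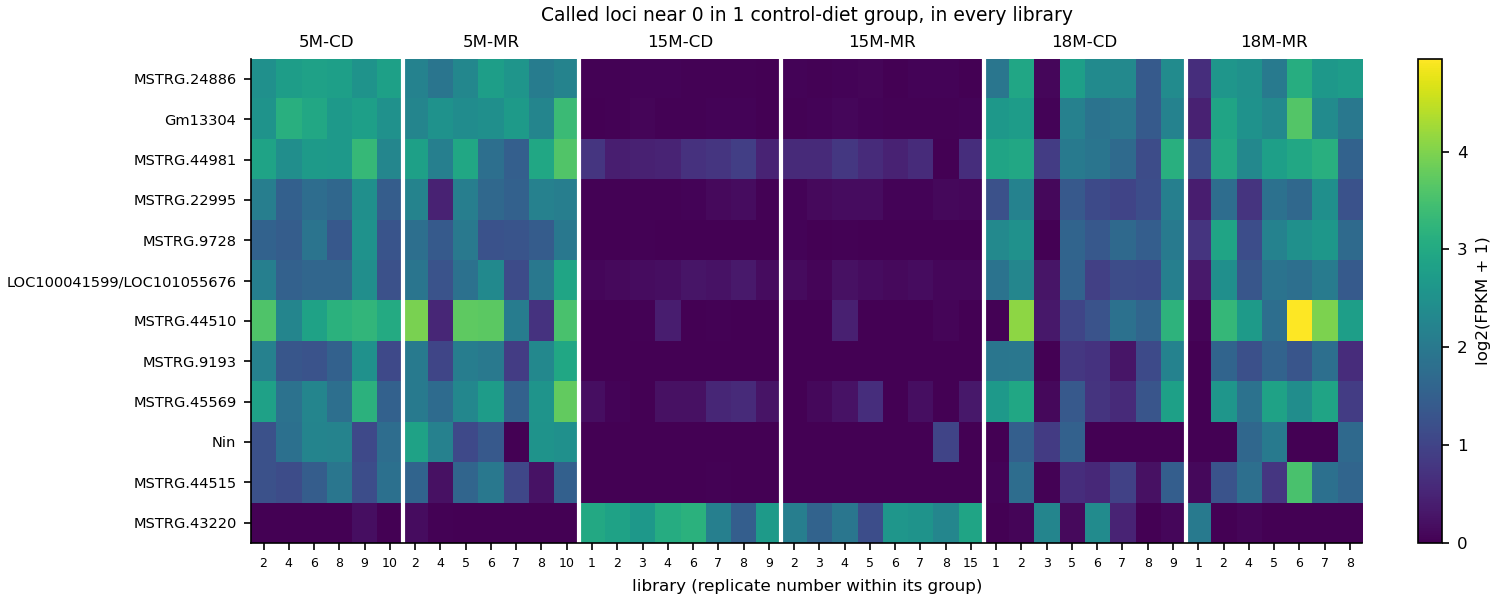
Level, as log2(FPKM + 1), of the 11 loci called lower with under 1 FPKM in every 15M-CD library and of MSTRG.43220, called higher with under 1 FPKM in every 5M-CD library, in each of the 44 libraries, ordered by group and replicate number. The 15M-CD and 15M-MR columns are dark in the first 11 rows, apart from Nin in 15M-MR 8 (1.03 FPKM), and light in the last, and those of 18M-CD 3 and 18M-MR 1 are dark in most rows too.

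The age difference was then read in mice under methionine restriction, which share no library with the control-diet groups. Of the 33 loci called under the control diet 33 had the same sign between 15M-MR and 5M-MR, and 30 were called there as well, which is 90.9% of the control-diet calls and 1.3% of the MR calls. The 30 include all 12 loci that passed the filter through 1 age group alone and so had to differ under the control diet. The 3 not called under MR were all among the other 8 higher and 13 lower calls. Under MR 2301 loci were called (19.1% of those tested), so a single call there is common, and across all loci 75.4% had the same sign under both diets (r = 0.58 across loci, which are no replicates). All 4 immediate early calls were lower under MR, with −1.0 for Fos (adjusted p = 2.67e-05), −0.40 for Ier2 (0.0246), −1.09 for Nr4a1 (0.000338) and −0.90 for Arc (0.00723). Junb (−0.84), Egr1 (−1.26), Egr4 (−1.13) and Ier3 (−0.67), which had not passed under the control diet, were called there too. Rbm3 (−0.71), the Cirbp locus (−0.78), Cort (−0.78), Olfml3 (1.04) and Gabra2 (1.41) were among the shared calls. Not called under MR were Tubb5 (−0.58, adjusted p = 0.183), Serpina3g/Serpina3n (0.36, adjusted p = 0.145) and MSTRG.32394.

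Over all loci tested the median absolute difference was 0.188 under the control diet and 0.312 under MR. The median spread within a group (SD in log2) was 0.335 in 5M-CD and 0.384 in 15M-CD, and 0.288 in 5M-MR and 0.354 in 15M-MR. All 15M-MR libraries lay on lane 4 and none of 5M-MR did, so age and lane cannot be told apart there, and with lane as a factor 9 loci passed. Whether an age difference itself differed between the diets was tested as an interaction. It gave 0 calls (0%) in limma, with a smallest adjusted p of 0.904 and 396 loci at an unadjusted p under 0.05, and array weights gave 2. Of the 33 control-diet calls 3 had an unadjusted interaction p under 0.05, namely Tubb5 (0.000491), Gm15453 (0.0237) and MSTRG.32394.

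**Figure D5:**
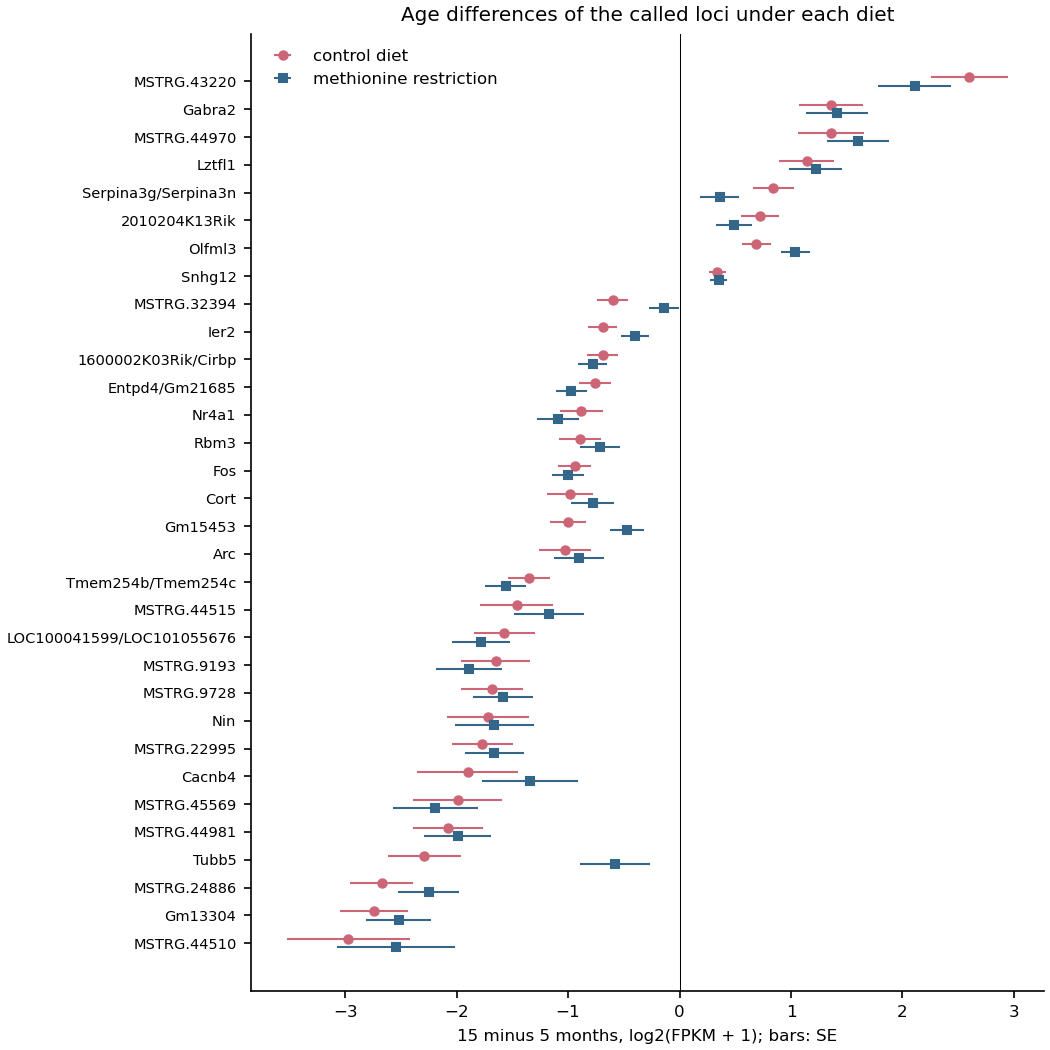
Difference between 15 and 5 months (log2(FPKM + 1), bars are SE) of 32 of the 33 loci called under the control diet, for the control diet (circles) and for methionine restriction (squares). Every pair lies on the same side of 0, and Tubb5 (−2.29 and −0.58) has its 2 points farthest apart.

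At 18 months the control-diet means lay on the same side of 5M-CD for 33 of the 33 loci. These values share the 5M-CD libraries with the comparison that called the loci, so the agreement in sign is partly built in. Of the 33 loci 12 passed the filter through 1 age group alone. The values are given side by side only, without the share of all tested loci. Fos was at 3.51 FPKM in 18M-CD, where 15M-CD had 3.69 and 5M-CD 8.09, and Olfml3 at 8.41, where the younger groups had 5.12 and 8.95. Cort was at 5.16 FPKM, between 2.87 at 15 and 6.72 at 5 months, and Gabra2 at 8.54, between 14.9 and 5.04. In 16 of the 33 loci the 18-month difference from 5M-CD was under 0.5 times that at 15 months.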

How the data were processed

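The authors deposited FPKM per assembled locus for 44 libraries of total RNA from mouse hippocampus, extracted with phenol and chloroform and prepared with BGI-500 protocols, per the labels. Per the submitters' processing notes, Trimmomatic 0.38, HISAT2 (no version) and StringTie 1.3.4d were used on GRCm38.p6, and the annotation and strand setting are not given in the sources used here. FPKM hold no counts. Among loci under 0.2 FPKM in both libraries of a pair, at most 3.9% shared 1 ratio within 0.1%, so no whole reads were recovered, and without a known depth counting intervals could not be computed. Of 13218 loci 3187 have no symbol, and loci with several symbols are kept merged.

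Loci that reached 1 FPKM in 6 or more of the 14 libraries were log2(FPKM + 1) transformed and fitted in all 44 libraries by limma 3.58.1 under R 4.3.3. The model had 6 group means (38 residual degrees of freedom) and a variance trend with intensity, and was first checked on simulated data. P-values are 2-sided, measure the spread between libraries, each read as 1 mouse, with Benjamini-Hochberg adjustment over the 12057 loci and a threshold of 0.05. Library measures were compared by exact permutation of all 3003 splits (SciPy 1.17.1). Plots were made in matplotlib 3.10.9. Results on some genes are not reported here. The text names the other calls with a symbol, up to 4 members of smallest p from those of 45 lists that are described, and defining markers. Others are said to be chosen by value. The members and lists were chosen with earlier results of these data known. Positions and overlaps are those of GENCODE M21 and promoters those of RefSeq on GRCm38.p6. Replicate numbers come from the sample names. The alternatives were another pseudocount, 3 other filters, 2 other scalings, lane as a factor, lane 4 alone, a replicate block, array weights, no trend, only the groups compared, and each library left out. Leaving out the 3 libraries of largest spread was added after seeing the data.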

Additional observations from a re-analysis of the deposited data

Results flagged for a closer look

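In 148 groups of 6 or 8 libraries, 18 single values lay farther from the rest of their group than Dixon's test allows, and chance flags about 5% of groups. Their part in the results was not tested.

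In 5M-CD replicate 9, on lane 4, MSTRG.43220 was at 0.138 FPKM (0 in the others), Tubb5 at 8.91 (others 56.8 to 64.9), MSTRG.44970 at 1.4 (others 0.708 to 0.82), Sqle at 6 (others 9.34 to 11.7) and Olig2 at 4.06 (others 5.7 to 6.84). In 5M-CD replicate 2, Gm15453 was at 8.37 FPKM (others 13.1 to 13.9), Serpina3g/Serpina3n at 35.4 (others 14.4 to 19.4) and S100b at 26.5 (others 35.5 to 37.9). Tmem254b/Tmem254c was at 5.89 FPKM in 5M-CD 6 (others 9.98 to 13.3).

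In 15M-CD replicate 7, on lane 4, Sqle was at 0.115 FPKM (others 6.43 to 9.29) and Ogn at 1.45 (others 3.18 to 5.08). Mt3 was at 1329 FPKM in 15M-CD 2 (others 809 to 1014), Gabra3 at 8.18 in 15M-CD 3 (others 0.176 to 1.37), Slc1a2 at 3.86 in 15M-CD 6 (others 41 to 103), MSTRG.44510 at 0.308 in 15M-CD 4 (others at most 0.0197) and Nin at 0.00453 in 15M-CD 2 (0 in the others). Ttr was at 4910 FPKM in 5M-CD 10 (others 31.8 to 92) and at 3356 in 15M-CD 2 (others 12.6 to 186).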

How the results depend on the processing

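Against 9 higher and 24 lower loci, quantile normalization called 16 higher, array weights 113 higher and 115 lower, and a filter at 5 FPKM, under which 15 of the 33 calls were not tested, 10 lower. With lane as a factor 7 were lower and 8 of the 33 calls were kept, 6 of them loci that passed the filter through 1 age group alone and so had to differ. In lane 4 alone limma called 0 lower and 12 higher, 342 loci had an unadjusted p under 0.05, and 0 of the 33 calls were kept. Leaving out 1 library gave 6 to 15 higher (15 without 15M-CD 1) and 17 to 25 lower (17 without 5M-CD 8), and 20 of the 33 calls were kept throughout. Those 20 include, except for Nin and MSTRG.44515, the loci that passed the filter through 1 age group alone and so had to differ. Without 5M-CD 9, 15M-CD 7 and 15M-CD 8 together, a choice made after seeing the data, 2 were higher and 15 lower. The 2301 calls under MR became 834 with the filter at 5 FPKM, 9 with lane as a factor, 4348 with array weights, and 1460 to 2246 with 1 library left out (1460 without 5M-MR 6, 1463 without 5M-MR 8). The interaction gave 1 call with lane as a factor, 2 with array weights, 0 to 1 with 1 library left out (1 without 5M-CD 9) and 1 without the 3 libraries. Signs turned for Cx3cr1 (0.18), Mbp (−0.22), P2ry12 (0.50), Slc1a2 (0.40) and Grin2b (−0.01) in lane 4 alone and for P2ry12 with array weights (0.03). The cause was not tested.

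With the replicate block 15 loci were lower under the control diet, 20 of the 33 calls were kept, and 1262 were called under MR. Libraries of the same number did not vary together (correlations −0.246 to 0.058 over 5 numbers), so the numbers were not taken as pairs. The depth of the libraries is unknown, which leaves the counting error of low FPKM unmeasured.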
